A study of Mus musculus with 24 samples.

Results

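The BCL2 family controls the mitochondrial route of cell death. Its antiapoptotic proteins hold the mitochondrial outer membrane closed by binding proapoptotic relatives, the BH3-only proteins sense stress and loss of growth signals and occupy those guardians, and the effectors BAX and BAK perforate the membrane and release cytochrome c. In immune cells the balance sets how long an activated cell lives, since dendritic cells, macrophages and lymphocytes lean on different guardians. The 10 genes described here were taken by symbol from the 20673 genes of the count files. They are the antiapoptotic Bcl2, Bcl2l1 (BCL-XL) and Mcl1, the BH3-only Bcl2l11 (BIM), Bbc3 (PUMA), Pmaip1 (NOXA), Bid and Bad, and the effectors Bax and Bak1. All 10 were found in every file.

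RNA was sequenced from 4 kinds of activated primary cells. The mice were C57BL/6J, either lacking miR-155 (knockout, KO) or wild type (WT), and the 24 libraries form 8 groups of 3. Dendritic cells, KO or WT, were CD11c-positive spleen cells of mice injected with B16 melanoma cells that expressed Flt3 ligand, cultured with GM-CSF at 20 ng/ml plus LPS at 100 ng/ml. Macrophages, KO or WT, were peritoneal cells drawn in by thioglycollate, with LPS at 100 ng/ml. B cells, KO or WT, came from spleen by removal of CD43-positive cells and were cultured with IL-4 at 6.5 ng/ml plus LPS at 25 ug/ml. CD4 T cells, KO or WT, were CD25-negative and CD44-negative cells of lymph node and spleen, activated with beads against CD3 and CD28. The title of the series names the effect of cellular context on regulation by this microRNA as its question. Each cell type had its own stimulus, so cell type and stimulus cannot be told apart, and neither the age of the mice nor whether animals were pooled is stated. The replicates are called sequencing replicates and are not tied to animals, so a p-value here measures library-to-library spread, and that may be technical.

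Libraries held 7428821 to 14219823 gene counts. The targeted microRNA has no row under its symbol, which left the KO label unchecked on it. Marker sums fitted the labels of the cells. B cell markers summed to 3595 to 4090 CPM (library-size scaled counts, with TMM factors) in B cell libraries, CD4 T cell markers to 2108 to 2279 in CD4 T cell libraries, dendritic cell markers to 11857 to 16310.5 in dendritic cell libraries and macrophage markers to 15039 to 21264 in macrophage libraries. In the other cell types each of these sums was at most 5.64% of that in its own cells, by group means. Not every dendritic cell marker went with its sum, which Fscn1 and Ccr7 largely made up. Itgax (CD11c) averaged 29.2 CPM in KO and 31.4 CPM in WT dendritic cells, against 397 and 263 CPM in KO and WT macrophages. Clec9a and Xcr1 averaged at most 5.63 CPM in dendritic cells. A pair of macrophage libraries stood apart from their group. The median absolute log2 difference from the other libraries of the group was 0.295 for macrophage WT replicate 3 and 0.239 for macrophage WT replicate 2, against 0.0704 to 0.185 for the remaining libraries.

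miR-155 acts by pairing its seed, bases 2 to 8, with sites in messenger RNA, so the microRNA and the sites found in the family are shown first. The mature miR-155-5p of RefSeq lies on chromosome 16 (GRCm38.p6, chr16:84714143-84714165, plus strand), and capitals mark its seed.

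miR-155-5p: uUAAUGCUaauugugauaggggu

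Sites were searched on the transcript strand only, in each gene's longest 3' UTR (GENCODE M21, GRCm38), for AGCATTAA (8mer), AGCATTA (7mer-m8), GCATTAA (7mer-A1) and GCATTA (6mer), each place counted once under its longest type. Pmaip1 held 2 8mers in a 3' UTR of 2192 bases, and its sequence is not shown here. Of 19461 genes with a 3' UTR, 3.13% held an 8mer and 12.82% an 8mer or a 7mer. Bid held a 7mer-m8 (minus strand, chr6:120893912-120893918). Bcl2 held 2 6mers (minus strand, chr1:106543197-106543202 and chr1:106541593-106541598), Mcl1 held 1 (plus strand, chr3:95662089-95662094) and Bad held 1 (plus strand, chr19:6951463-6951468). A 6mer was the longest match in 7.16% of all genes. In the printed sites, read in the sense of the transcript, capitals mark the match.

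Bid, 7mer-m8: ctaaggagaacAGCATTAggagaggtgca
Mcl1, 6mer: tttagttatctGCATTAgaactctcacc
Bad, 6mer: cggctggacgcGCATTAtccagtcctgg
Bcl2, first 6mer: agaaattatatGCATTAtcaatgatgta
Bcl2, second 6mer: ttacctttgggGCATTAtcacaccctgt

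No match of these letters was found in the 3' UTRs of Bcl2l1 (1477 bases), Bcl2l11 (4218), Bbc3 (971), Bax (224) and Bak1 (1121). The median 3' UTR of all genes was 1001 bases, so these windows differ in how much sequence was searched. A match is a description of the letters and not a measured site.

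In dendritic cells 4 of the 9 members tested changed in KO, 2 in each direction. Pmaip1 and Mcl1 rose, and Bcl2l1 and Bad fell. Over all genes tested in these cells, 21.6% changed, 12.2% upward and 9.42% downward. The median log2 fold change of the 9 members was -0.15, against -0.011 over all genes. Bcl2 was too low to be tested there, with 1 to 5 counts a library.

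Bcl2l1, whose protein BCL-XL guards the mitochondrion, fell the most of the members. The KO dendritic cell libraries had 28.3, 30.1 and 31.1 CPM and the WT libraries 60.0, 57.8 and 49.8 CPM. Each KO library lay well below each WT library. The log2 fold change (KO minus WT throughout) was -0.91 (SE 0.098, edgeR adjusted p = 0.00019), which is 1.87-fold lower. In bulk samples, fewer cells that make a messenger and less of it per cell cannot be told apart. Mcl1, the short-lived guardian that NOXA binds, had 482, 469 and 457 CPM in KO libraries against 358, 376 and 333 CPM in WT libraries. The groups did not overlap, and the rise was 0.40 on the log2 scale (SE 0.074, edgeR adjusted p = 0.0037).

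Pmaip1 encodes NOXA, a BH3-only protein that neutralises MCL1. It had 80.8, 77.3 and 86.6 CPM in KO dendritic cells and 31.3, 24.5 and 28.4 CPM in WT dendritic cells. The lowest KO library was above the highest WT library by more than the spread within either group. Its log2 fold change was 1.54 (SE 0.10, edgeR adjusted p = 1.3e-05), or 2.90-fold, the only member past 2-fold in a KO against WT comparison. Bad, whose protein binds BCL2 and BCL-XL when it is not phosphorylated, had 10.6, 10.3 and 11.4 CPM in KO against 15.6, 16.3 and 19.1 CPM in WT. The groups did not overlap, and Bad fell by 0.66 on the log2 scale (SE 0.13, edgeR adjusted p = 0.0055). These 4 calls held in all 12 other settings tried, each library left out in turn included, while the number of all genes called, 2279, was 1464, 1176, 1279 and 1483 without KO replicate 1, 2 or 3 or WT replicate 3. Coding exons of Bad overlap those of Gpr137 on the other strand in the annotation, and the handling of strand in the counting is not given in the sources used here, so the counts of Bad are uncertain.

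The other BH3-only members were not called in dendritic cells. Bcl2l11, the BIM gene, had 94.7, 108 and 104 CPM in KO and 91.5, 129 and 126 CPM in WT, with overlapping groups (log2 fold change -0.18, SE 0.12, edgeR adjusted p = 0.32). WT replicate 1 decided that result, since without it Bcl2l11 was lower in KO by a called amount (-0.33, edgeR adjusted p = 0.0020). Bid, which caspase-8 cleaves to carry death receptor signals to the mitochondrion, averaged 4.94 ± 0.44 CPM in KO and 6.67 ± 0.45 CPM in WT (SD, n = 3 each). Its groups did not overlap, and the log2 value was -0.43 (SE 0.18, edgeR adjusted p = 0.10). Bbc3, the PUMA gene and a p53 target, averaged 14.5 ± 1.49 CPM in KO and 11.4 ± 2.10 CPM in WT (SD, n = 3 each; log2 0.35, SE 0.16, edgeR adjusted p = 0.14).

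The effectors stood close together between genotypes. Bax averaged 230.4 ± 6.90 CPM in KO and 240.7 ± 29.8 CPM in WT dendritic cells, and Bak1 64.4 ± 1.66 CPM in KO and 71.5 ± 5.29 CPM in WT (SD, n = 3 each). Neither was called (log2 -0.064 and -0.15, SE 0.092 and 0.080, edgeR adjusted p = 0.66 and 0.20). Markers of other cell types moved with genotype in these libraries. All 10 measured macrophage markers were lower in KO, with sums of 80.9 to 105 CPM in KO and 116 to 302 CPM in WT dendritic cells (exact permutation p = 0.1, two-sided, the smallest that 3 against 3 libraries allow). The WT sum was 0.976% of that in WT macrophages. All 8 B cell markers were higher in KO, with sums of 16.0 to 27.6 CPM in KO and 7.94 to 15.3 CPM in WT (exact permutation p = 0.1). The 8 neutrophil markers summed to 3.27 to 3.56 CPM in KO and 4.62 to 20.1 CPM in WT (exact permutation p = 0.1), with Ly6g and Retnlg at 0. Csf3r averaged 1.51 CPM in KO and 5.98 CPM in WT, and Mmp8 1.64 and 3.57 CPM. The 6 stromal and mesothelial markers summed to 0.794 to 1.14 CPM in KO and 2.41 to 2.74 CPM in WT (exact permutation p = 0.1), with Msln and Upk3b at 0. Dendritic cell markers summed to 15571 to 16310.5 CPM in KO and 11857 to 12716 CPM in WT (exact permutation p = 0.1). Of these 10 markers 7 were higher and 3 lower in KO. Most of the difference in the sum lay in Fscn1, which averaged 8441 CPM in KO and 5313 CPM in WT. The part of these markers in the changes of the family was not tested.

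**Figure D1:**
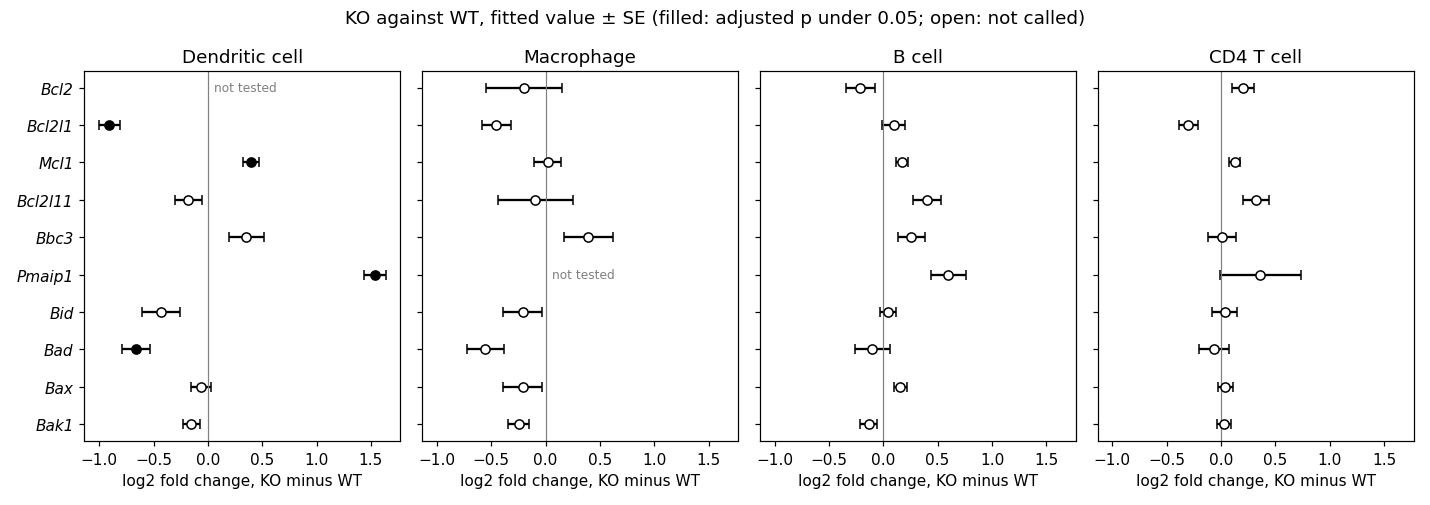
KO against WT for each member (rows) in 4 cell types (panels), as the log2 fold change fitted by edgeR ± SE from 3 KO and 3 WT libraries. Filled points passed an adjusted p under 0.05, which holds for Bcl2l1, Mcl1, Pmaip1 and Bad in dendritic cells. Bcl2 in dendritic cells and Pmaip1 in macrophages were too low to be tested.

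In macrophages none of the 9 members tested was called by edgeR, where 0.885% of all genes were, and DESeq2 called none of the members either. At an unadjusted p under 0.05 there were 3, Bcl2l1, Bad and Bak1, each lower in KO. The share of all genes at that threshold was not counted, here or below. Such counts are thus not set against shares at an adjusted p. Bcl2l1 had 34.3, 31.4 and 32.7 CPM in KO macrophages and 48.7, 50.7 and 37.3 CPM in WT macrophages. The groups did not overlap, although WT replicate 3 lay nearer to the KO libraries (log2 -0.45, SE 0.13, edgeR adjusted p = 0.15). Bad had 20.6, 22.5 and 21.2 CPM in KO against 37.6, 34.4 and 23.7 CPM in WT, again with WT replicate 3 nearest to KO (log2 -0.55, SE 0.17, edgeR adjusted p = 0.17).

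These macrophage results turned on 1 library and on the fit. Without WT replicate 3, which stood apart over all genes, 3 members fell in KO, Bad by 0.72, Bcl2l1 by 0.57 and Bax by 0.38 on the log2 scale (edgeR adjusted p = 0.0043, 0.0059 and 0.047), and 2746 genes in all were called in place of 95. With that library kept and all 24 libraries in one fit, Bad, Bcl2l1 and Bak1 were called lower in KO (log2 -0.57, -0.47 and -0.27, edgeR adjusted p = 0.0087, 0.013 and 0.021). Without KO replicate 1, 2 or 3 or WT replicate 1 or 2 no member was called, and 0, 0, 1, 0 and 148 genes in all were. The replicate numbers may pair the macrophage libraries, and with the number as a block still no member was called while the count of all genes called was 265. Mcl1 averaged 472 ± 16.2 CPM in KO and 472 ± 60.0 CPM in WT macrophages (SD, n = 3 each), a log2 value of 0.021 (SE 0.13, edgeR adjusted p = 0.95). Pmaip1 was too low to be tested, at 0.44 to 1.32 CPM in KO and 0.47 to 1.45 CPM in WT. Stromal and mesothelial markers summed to 358 to 818 CPM in KO and 161 to 400 CPM in WT macrophages (exact permutation p = 0.2). The neutrophil list summed to 3568 to 4433 CPM in KO and 3573 to 4762 CPM in WT (exact permutation p = 0.9), and its members differed widely. Mmp8 averaged 3333 CPM in KO and 3344 CPM in WT, Csf3r 627 and 666 CPM, S100a8 65.5 and 56.1 CPM, and Camp 2.58 and 4.02 CPM. S100a9, Ltf, Ly6g and Retnlg were under 1 CPM in all macrophage libraries, Ly6g and Retnlg at 0. Macrophage markers summed to 15039 to 16430.5 CPM in KO and 17203 to 21264 CPM in WT (exact permutation p = 0.1), 3 of 10 being higher in KO and 7 lower. Dendritic cell markers summed to 484 to 563 CPM in KO and 366 to 482 CPM in WT (exact permutation p = 0.1), 3 of 10 being higher in KO and 6 lower. Among these Itgax averaged 397 CPM in KO and 263 CPM in WT. The part of these in the macrophage values was not tested.

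In B cells none of the 10 members was called by edgeR or DESeq2, against 3.2% of all genes by edgeR, and 4 had an unadjusted p under 0.05. Those 4, Pmaip1, Bcl2l11, Mcl1 and Bax, were higher in KO. The share of all genes at that threshold was not counted. With the replicate number as a block these 4 were called, and 1260 genes in all, though the pairs that the block forms are uncertain. Pmaip1 had 7.64, 6.59 and 5.94 CPM in KO B cells and 4.42, 4.18 and 4.78 CPM in WT B cells. The groups did not overlap, and the log2 value of 0.60 (SE 0.16) missed the threshold narrowly (edgeR adjusted p = 0.056). It passed when KO replicate 3 was left out (log2 0.68, edgeR adjusted p = 0.026). The 325 genes called in all became 156 when KO replicate 2 was left out, 141 for WT replicate 1 and 150 for WT replicate 2. Bcl2l11 had 10.0, 10.6 and 10.8 CPM in KO against 7.77, 8.86 and 6.92 CPM in WT, without overlap (log2 0.41, SE 0.13, edgeR adjusted p = 0.11). Mcl1 averaged 175 ± 3.44 CPM in KO and 154.6 ± 8.85 CPM in WT, and Bcl2l1 33.8 ± 0.68 CPM in KO and 31.6 ± 5.81 CPM in WT (SD, n = 3 each). The B cell mean of Bcl2l1 thus lay higher in KO (log2 0.094, SE 0.11, edgeR adjusted p = 0.73), with overlapping libraries.

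In CD4 T cells none of the 10 members was called by edgeR or DESeq2, where edgeR called 2.15% of all genes, and 3, Bcl2l1, Bcl2l11 and Mcl1, had an unadjusted p under 0.05. The share of all genes at that unadjusted threshold was not counted. Bcl2l1 had 32.5, 40.6 and 39.5 CPM in KO T cells and 43.1, 46.8 and 48.9 CPM in WT T cells. The groups did not overlap (log2 -0.30, SE 0.084, edgeR adjusted p = 0.079), and without WT replicate 1 the value was called (-0.35, edgeR adjusted p = 0.035). The 223 genes called in all became 32, 68 and 47 without KO replicate 1, 2 or 3, and 598, 34 and 409 without WT replicate 1, 2 or 3. Bcl2l11 averaged 19.5 ± 2.54 CPM in KO and 15.5 ± 1.83 CPM in WT (SD, n = 3 each), with overlap (log2 0.32, SE 0.12, edgeR adjusted p = 0.17). Mcl1 averaged 155.2 ± 10.0 CPM in KO and 142 ± 2.52 CPM in WT without overlap (SD, n = 3 each; log2 0.12, SE 0.053, edgeR adjusted p = 0.24). Bcl2, the guardian most used by resting lymphocytes, averaged 26.8 ± 3.50 CPM in KO and 23.3 ± 1.48 CPM in WT (SD, n = 3 each), with overlapping libraries.

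Whether the KO effect itself differed between cell types was tested in a fit of all 24 libraries. Over the 4 cell types together 2 of the 10 members passed, Bcl2l1 (edgeR adjusted p = 0.0040) and Pmaip1 (edgeR adjusted p = 0.035), against 12.6% of all genes. Pmaip1 had only 4 to 14 counts a library in macrophages, where it was too low to be tested alone. It entered this fit through other cell types, so its macrophage KO effect rests on values near 0. Bcl2l1 libraries of KO averaged 46.6% below WT in dendritic cells, 28.0% below in macrophages and 19.0% below in CD4 T cells, and 7.11% above in B cells. The KO effect on Bcl2l1 was 1.002 higher in B cells than in dendritic cells on the log2 scale (SE 0.18, edgeR adjusted p = 0.0016), a difference that passed in all 16 other settings. It was the only member called in that pair, where 5.63% of all genes were.

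The KO effect on Bcl2l1 was also higher in CD4 T cells than in dendritic cells, by 0.60 (SE 0.17, edgeR adjusted p = 0.041), as the only member against 6.1% of all genes. That call was lost without each of the 12 libraries in turn except dendritic cell WT replicate 3 and CD4 T cell KO replicate 1, at an adjusted p of up to 0.10. For Mcl1 the KO effect in dendritic cells exceeded that in macrophages by 0.40 (SE 0.11, edgeR adjusted p = 0.029), again the only member, against 9.27% of all genes. That fit did not use the possible pairing of the macrophage libraries, and with the replicate block the difference in Mcl1 was 0.40 (edgeR adjusted p = 0.037). It was lost without dendritic cell KO replicate 1 or 2 or WT replicate 3, macrophage KO replicate 2 or 3, or macrophage WT replicate 1 or 2, at an adjusted p of up to 0.085. The call for Pmaip1 over the 4 cell types was lost in 13 of the 24 fits without 1 library, at an adjusted p of up to 0.087. These were dendritic cell KO replicates 1, 2 and 3 and WT replicates 2 and 3, macrophage KO replicates 2 and 3, B cell KO replicates 2 and 3 and WT replicates 1 and 3, and CD4 T cell KO replicate 1 and WT replicate 2. Without macrophage WT replicate 3, 7 members passed over the 4 cell types and 2 between dendritic cells and macrophages. The share of all genes called in those fits is not given here. Without that library the KO against WT calls over all genes in macrophages rose from 95 to 2746. These member counts are thus not read as results about the family. Between B cells and macrophages, between CD4 T cells and macrophages, and between B cells and CD4 T cells no member was called by edgeR or DESeq2, against 2.67, 3.63 and 0.0571% of all genes. At an unadjusted p under 0.05 there were 3, 2 and 1 members in these pairs, and without macrophage WT replicate 3 the first and second pair had 5 and 3 called members. The shares of all genes at that threshold and in those fits are not given here either.

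Across cell types the family differed far more than between genotypes, as did the rest of the transcriptome. In WT all 10 members differed between dendritic cells and macrophages, between B cells and dendritic cells and between CD4 T cells and dendritic cells, against 80.4, 80.2 and 81.6% of all genes. Between B cells and macrophages 9 differed, between CD4 T cells and macrophages 8 and between B cells and CD4 T cells 6, against 82.4, 83.8 and 56.2% of all genes. In KO these counts were 8, 9, 10, 8, 7 and 6 in the same order of pairs, against 80.8, 81.1, 81.6, 82.7, 83.2 and 58.6%. The shares of members thus lay near those of all genes.

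**Figure D2:**
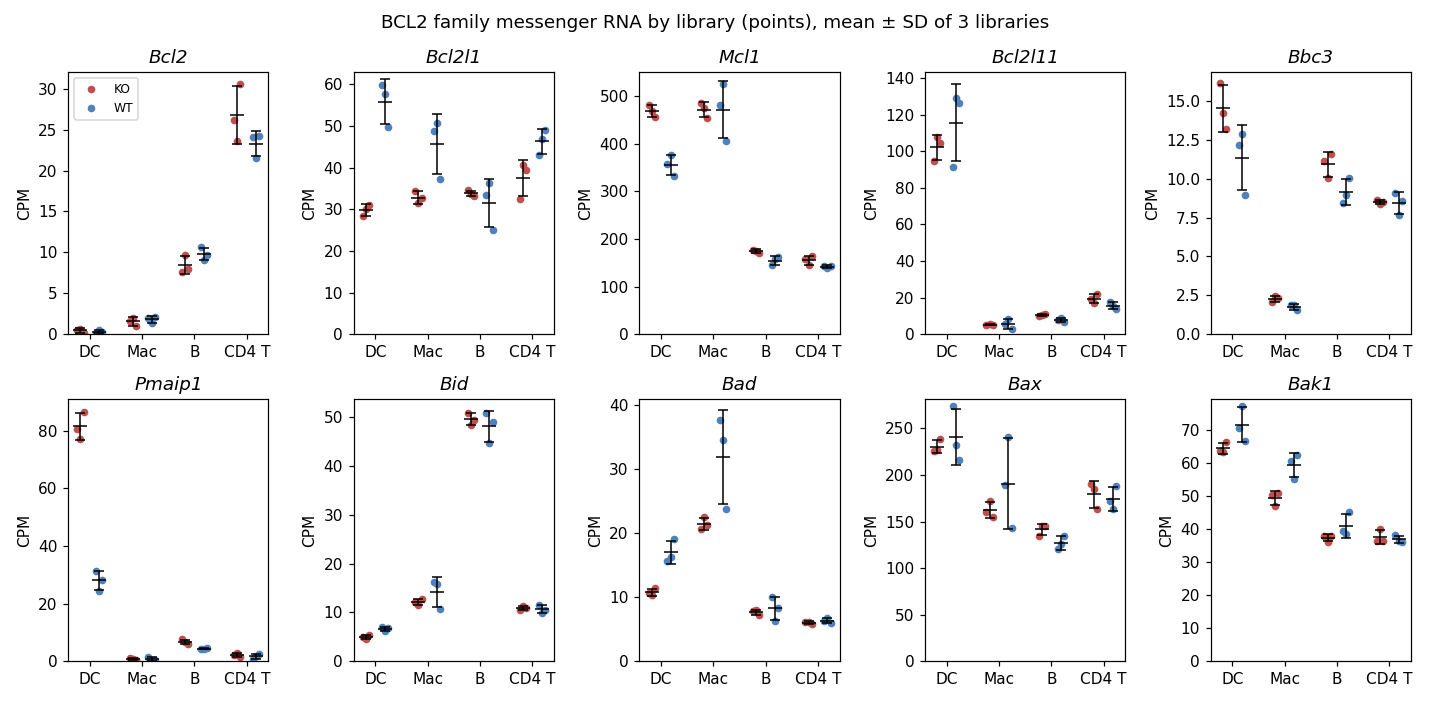
Level of each member in CPM (linear axes starting at 0, own scale per panel) in dendritic cells (DC), macrophages (Mac), B cells and CD4 T cells, KO left of WT. Points are the 3 libraries, and bars the mean ± SD. Pmaip1 and Bcl2l11 stand highest in dendritic cells, Bid in B cells, Bad in macrophages and Bcl2 in CD4 T cells.

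Among the antiapoptotic members Bcl2 was a lymphocyte gene in these libraries. It averaged 26.8 CPM in KO and 23.3 CPM in WT CD4 T cells, 8.45 CPM in KO and 9.79 CPM in WT B cells, 1.55 CPM in KO and 1.81 CPM in WT macrophages, and 0.45 CPM in KO and 0.28 CPM in WT dendritic cells. Every step of this order was called in both genotypes, with log2 differences of 1.66, 2.44 and 1.73 in KO and 1.25, 2.44 and 2.62 in WT (edgeR adjusted p at most 0.00067). The top and the bottom cell type lay 59.2-fold apart in KO and 82.2-fold apart in WT, the bottom being 1 to 5 counts a library. Mcl1 ran the other way, at 472 CPM in both genotypes of macrophages, 469 CPM in KO and 355 CPM in WT dendritic cells, 175 CPM in KO and 154.6 CPM in WT B cells, and 155.2 CPM in KO and 142 CPM in WT CD4 T cells. Macrophages exceeded dendritic cells in WT (log2 0.41, SE 0.081, edgeR adjusted p = 8.49e-05) and not by a called amount in KO (0.0090, SE 0.081, edgeR adjusted p = 0.93), and B cells and CD4 T cells did not differ by a called amount in either genotype (log2 0.17 in KO and 0.12 in WT, SE 0.082 each, edgeR adjusted p = 0.080 and 0.22). Their KO libraries did not overlap, at 171 to 178 CPM in B cells and 144 to 164 CPM in CD4 T cells, nor did their WT libraries, at 145 to 162 CPM in B cells and 139 to 144 CPM in CD4 T cells. With the 12 KO libraries fitted alone the difference in KO was called (log2 0.18, edgeR adjusted p = 0.0096).

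Bcl2l1 kept the narrowest range. In KO its 4 cell types lay between 29.9 CPM in dendritic cells and 37.5 CPM in CD4 T cells, and no neighbours in that order differed by a called amount (edgeR adjusted p from 0.29 to 0.76). In WT dendritic cells came first with 55.9 ± 5.34 CPM, before CD4 T cells with 46.3 ± 2.95, macrophages with 45.6 ± 7.22 and B cells with 31.6 ± 5.81 CPM (SD, n = 3 each). The first step was called (log2 0.27, SE 0.12, edgeR adjusted p = 0.042) but not without dendritic cell WT replicate 1 or 2 or CD4 T cell WT replicate 1 or 2 (edgeR adjusted p up to 0.15). That step was also not called with no expression filter or with the 12 WT libraries fitted alone (edgeR adjusted p = 0.053 and 0.10). CD4 T cells and macrophages did not differ beyond their spread, and macrophages exceeded B cells (log2 0.53, SE 0.12, edgeR adjusted p = 0.00041). Dendritic cells thus had the highest mean of the 4 cell types in WT and the lowest in KO.

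The BH3-only members had their own preferences. Bcl2l11 was highest in dendritic cells, with 102 ± 6.81 CPM in KO and 116 ± 21.1 CPM in WT, before CD4 T cells with 19.5 and 15.5 CPM, B cells with 10.5 and 7.85 CPM and macrophages with 5.19 and 5.60 CPM in KO and WT (SD, n = 3 each). The steps from dendritic to CD4 T cells and on to B cells were called in both genotypes. B cells exceeded macrophages by a called amount in KO (log2 1.01, SE 0.23, edgeR adjusted p = 0.00036) and not in WT (0.48, SE 0.23, edgeR adjusted p = 0.063), where leaving out macrophage WT replicate 2 gave a call (0.95, edgeR adjusted p = 0.00067). Pmaip1 had a steeper order, at 81.6 CPM in KO and 28.1 CPM in WT dendritic cells, 6.72 and 4.46 CPM in KO and WT B cells, 2.22 and 1.73 CPM in KO and WT CD4 T cells, and 0.81 CPM in macrophages of both genotypes. All 3 steps were called in each genotype, the last in WT not without macrophage WT replicate 2 or 3 or CD4 T cell WT replicate 3 (edgeR adjusted p = 0.095, 0.073 and 0.15). From top to bottom Pmaip1 spanned 101-fold in KO and 34.6-fold in WT, the bottom being 4 to 14 counts a library over both genotypes.

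Bid was a B cell gene here, with 49.5 ± 1.21 CPM in KO and 48.1 ± 3.17 CPM in WT B cells (SD, n = 3 each). The other cell types lay at 12.1 and 14.3 CPM in KO and WT macrophages, 10.9 and 10.6 CPM in KO and WT CD4 T cells and 4.94 and 6.67 CPM in KO and WT dendritic cells. B cells exceeded macrophages by 2.02 in KO and 1.75 in WT on the log2 scale (edgeR adjusted p = 9.17e-14 and 8.58e-13), and macrophages and CD4 T cells differed by a called amount in WT only (0.42, edgeR adjusted p = 0.0027, against 0.16 and 0.24 in KO). Bad was highest in macrophages, with 21.4 ± 0.98 CPM in KO and 31.9 ± 7.30 CPM in WT (SD, n = 3 each), then in dendritic cells with 10.7 and 17.0 CPM in KO and WT. B cells held 7.63 and 8.26 CPM and CD4 T cells 6.06 and 6.32 CPM in KO and WT, a difference not called in either genotype (edgeR adjusted p = 0.096 in KO and 0.061 in WT, and 0.010 in WT without B cell WT replicate 2). Bbc3 was low in macrophages, at 2.28 CPM in KO and 1.76 CPM in WT, and ran from 8.44 to 14.5 CPM in the other groups. Dendritic cells exceeded B cells in Bbc3 by 0.41 in KO and 0.31 in WT (edgeR adjusted p = 0.0059 and 0.035), the WT value not being called without dendritic cell WT replicate 1 or 2 or B cell WT replicate 1 or 2 (edgeR adjusted p up to 0.19). Nor was it called with no expression filter or with the 12 WT libraries fitted alone (edgeR adjusted p = 0.073 and 0.082).

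The effectors varied least among the proapoptotic genes. Bax ran from 142 CPM in KO B cells to 230.4 CPM in KO dendritic cells and from 127 CPM in WT B cells to 240.7 CPM in WT dendritic cells, and Bak1 from 37.3 CPM in KO B cells to 64.4 CPM in KO dendritic cells and from 36.9 CPM in WT CD4 T cells to 71.5 CPM in WT dendritic cells. Dendritic cells exceeded macrophages in Bak1 by 0.39 in KO and 0.27 in WT on the log2 scale (edgeR adjusted p = 8.22e-05 and 0.0024), and CD4 T cells and B cells did not differ in it by a called amount (edgeR adjusted p = 0.94 in KO and 0.10 in WT), although the WT libraries did not overlap, at 36.2 to 38.1 CPM in CD4 T cells and 38.5 to 45.1 CPM in B cells. In WT, dendritic cells exceeded macrophages in Bax by 0.33 (SE 0.12, edgeR adjusted p = 0.017), which was not called without dendritic cell WT replicate 1 or macrophage WT replicate 3 (edgeR adjusted p = 0.084 and 0.088). Nor was it called with the 12 WT libraries fitted alone (edgeR adjusted p = 0.070). In KO the step from dendritic cells to CD4 T cells was called for Bax (0.36, SE 0.12, edgeR adjusted p = 0.011), but not without CD4 T cell KO replicate 3 (edgeR adjusted p = 0.057). Bax of WT macrophages did not exceed that of WT CD4 T cells by a called amount (0.13, SE 0.12, edgeR adjusted p = 0.33). CD4 T cells minus macrophages was -0.27 when macrophage WT replicate 3 was left out, a called amount (edgeR adjusted p = 0.014). It was 0.090 when macrophage WT replicate 2 was left out, not called (edgeR adjusted p = 0.43). Coding exons of Bak1 overlap Ggnbp1 on the other strand, so its counts carry the same uncertainty as those of Bad. Those of Bax overlap Gm45808 on the same strand, a gene without a row in the count files.

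To compare members with each other, CPM was divided by the longest annotated coding length in kilobases. That scale leaves out the 3' UTRs, which ran from 224 bases (Bax) to 5086 (Bcl2). The counting tool is not given, and the shares below may differ if reads in 3' UTRs were counted. On that scale Mcl1 made up most of the antiapoptotic sum of Bcl2, Bcl2l1 and Mcl1 everywhere, with 91.6 ± 0.52% in KO and 81.7 ± 0.85% in WT dendritic cells, 90.6 ± 0.27% in KO and 87.5 ± 0.46% in WT macrophages, 74.5 ± 0.36% in KO and 72.6 ± 3.67% in WT B cells, and 63.1 ± 2.11% in KO and 59.1 ± 1.005% in WT CD4 T cells (SD, n = 3 each). Bcl2l1 held 8.28 ± 0.56% in KO and 18.2 ± 0.89% in WT dendritic cells, with the 3 libraries of each group apart from those of the other. Bcl2 held at most 0.187% in any dendritic cell library, and 15.2% in KO and 13.6% in WT CD4 T cells. That sum left out antiapoptotic relatives of these genes. Among them Bcl2a1b averaged 1003 CPM in KO and 1010 CPM in WT dendritic cells, against 469 and 355 CPM for Mcl1. Bcl2a1b averaged 370 and 376 CPM in KO and WT macrophages, 226.5 and 149 CPM in B cells, and 67.0 and 55.8 CPM in CD4 T cells.

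The gene that led the BH3-only sum on the per-kilobase scale varied with cell type. In dendritic cells the leader differed by genotype, with Pmaip1 at 53.8 ± 1.85% in KO and 26.4 ± 5.11% in WT, and Bcl2l11 at 35.7 ± 2.17% in KO and 56.6 ± 6.33% in WT (SD, n = 3 each). Bad led in macrophages with 49.2% in KO and 57.0% in WT, Bid in B cells with 54.4% in KO and 59.02% in WT, and Bcl2l11 in CD4 T cells with 39.6% in KO and 35.1% in WT. Bax made up 77.1 to 83.8% of the effector sum in all 8 groups. With the shortest annotated coding length in place of the longest the Bid share in B cells was 41.4% in KO and 46.6% in WT, and the leaders were unaltered in these 8 groups. A length that takes in the 3' UTR was not tried, so the leaders hold for coding length only. The BH3-only sum left out Bmf, another BH3-only gene, which averaged 45.6 CPM in KO and 74.1 CPM in WT dendritic cells. Pmaip1 averaged 81.6 and 28.1 CPM there. In the other cell types Bmf averaged at most 3.74 CPM. These shares are descriptions without a test.

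**Figure D3:**
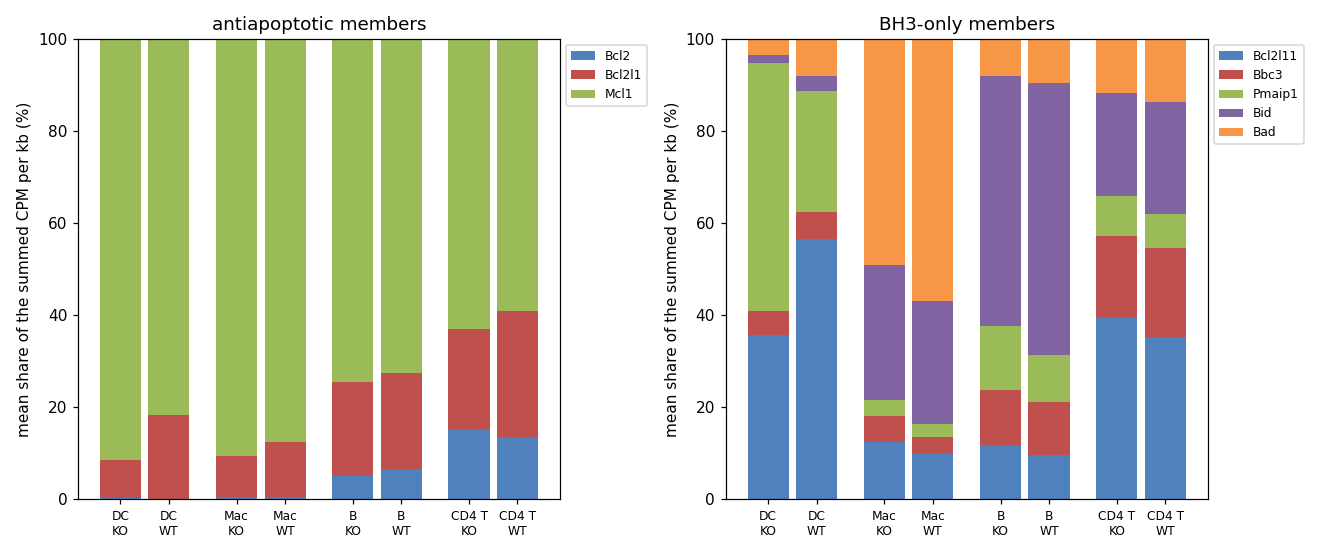
Mean share of each member in the summed CPM per kilobase of its class, in percent, for the antiapoptotic members (left) and the BH3-only members (right), KO left of WT in dendritic cells (DC), macrophages (Mac), B cells and CD4 T cells. Each bar holds only the listed members of its class, without relatives such as Bcl2a1b and Bmf, and averages 3 libraries. Mcl1 takes most of every antiapoptotic bar, and Pmaip1 takes 53.8% of the BH3-only bar in KO and 26.4% in WT dendritic cells.

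The genes whose log2 CPM ran most closely with each member over the 24 libraries were taken from the 9849 genes that averaged at least 5 CPM. The Pearson r was 0.995 between Mcl1 and Ncoa4, 0.990 between Bcl2 and Ubap2, 0.989 between Bbc3 and Gtpbp4, 0.982 between Pmaip1 and Tubb2b and 0.978 between Bcl2l11 and Ikzf4. It was 0.977 between Bid and Susd1, 0.975 between Bak1 and Trim41, 0.972 between Bad and Ilvbl, 0.935 between Bax and Med28 and 0.881 between Bcl2l1 and Tmem109. The libraries of a cell type share their cells and stimulus, so these values mostly restate the order of cell types and are given as descriptions.

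Other genes of the pathway were counted from 4 lists. In dendritic cells the share of all genes called was 21.6%, with 12.2% upward and 9.42% downward, and the counts there are read against it. Among 13 tested relatives of the family 2 rose and 1 fell in KO dendritic cells. Bcl2l14, a distant relative, had 406, 366 and 376 CPM in KO and 194, 281 and 163 CPM in WT (log2 0.85, SE 0.17, edgeR adjusted p = 0.010), a call lost without WT replicate 1 (edgeR adjusted p = 0.15), and averaged at most 2.12 CPM in the other cell types. Bmf, a BH3-only gene, fell to 45.4, 47.5 and 43.9 CPM in KO, against 54.9, 81.8 and 85.5 CPM in WT (log2 -0.70, SE 0.15, edgeR adjusted p = 0.0086). The groups did not overlap for either gene. Bnip3, a mitochondrial BH3-like gene, averaged 12.6 ± 4.25 CPM in KO and 6.83 ± 1.53 CPM in WT (SD, n = 3 each; log2 0.88, SE 0.25, edgeR adjusted p = 0.032), which was not called without KO replicate 1 or 3 or WT replicate 1, 2 or 3 (edgeR adjusted p up to 0.14). Of 21 genes of the mitochondrial pathway 5 rose, Birc2, Birc3, Htra2 and Vdac3 among them, and 3 fell (Aifm1, Dffb and Xiap) in these cells.

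Of 9 death receptor genes 1 rose and 2 fell in KO dendritic cells. Cflar, which encodes the caspase-8 inhibitor FLIP, averaged 154 ± 15.0 CPM in KO and 101 ± 20.0 CPM in WT (SD, n = 3 each; log2 0.61, SE 0.13, edgeR adjusted p = 0.0098), while Casp8 and the TNF receptor gene Tnfrsf1a fell (log2 -0.48 and -0.78, SE 0.085 and 0.11, edgeR adjusted p = 0.0028 and 0.00093). Among 11 tested regulators of BH3-only genes and their proteins, the kinase gene Pim1 rose and Trp53, which encodes p53, fell (log2 0.37 and -0.32, SE 0.071 and 0.077, edgeR adjusted p = 0.0044 and 0.016). Casp8, Pim1 and Trp53 are named because their counts are small, after their values were seen. Over the 4 lists 16 of 54 genes tested were called, beside 21.6% of all genes, which gives no result about the lists as such. Without KO replicate 3 there were 9 of 54, and the genes called in all were then 1279 in place of 2279. The median log2 fold changes of the 4 lists lay between -0.049 and 0.058, against -0.011 over all genes.

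In macrophages none of 51 genes of these lists was called by edgeR, with 9 at an unadjusted p under 0.05 and 1 called by DESeq2, beside 0.885% of all genes by edgeR. DESeq2 called 586 genes in all. Without WT replicate 3 there were 14 of the lists, where 2746 genes were called in all. With all 24 libraries in one fit there were 9 of 56, where 1755 were. Shares of all genes in the other settings are not given, here or below, so these counts are not read as results about the lists. In B cells 6 of 53 were called, 5 upward and 1 downward, beside 3.2% of all genes. With the replicate block 13 were called, where 1260 genes were called in all, and with all 24 libraries in one fit 1 of 56, where 81 were. Bcl2a1b, a relative of BCL2 with an antiapoptotic role, rose to 226.5 ± 0.41 CPM in KO, against 149 ± 4.07 CPM in WT (SD, n = 3 each; log2 0.60, SE 0.050, edgeR adjusted p = 3.0e-06), and held in all 12 other settings. Bcl2a1d rose by 0.53 (SE 0.067, edgeR adjusted p = 0.00024), which was not called with all 24 libraries in one fit (edgeR adjusted p = 0.065). The copies of Bcl2a1 are nearly identical, so the split of reads between them is uncertain. Diablo, whose protein SMAC blocks inhibitors of apoptosis, and Birc3, which encodes such an inhibitor, rose as well (log2 0.35 and 0.23, edgeR adjusted p = 0.020 and 0.011). The other gene called upward was Trp73, a relative of p53 (log2 1.18, edgeR adjusted p = 0.040), which fell outside the rule for named genes and is named after its values were seen. Fbxw7, which encodes a ubiquitin ligase subunit that targets MCL1, fell (log2 -0.37, SE 0.078, edgeR adjusted p = 0.017). Diablo, Fbxw7 and Birc3 were not called with all 24 libraries in one fit (edgeR adjusted p = 0.065, 0.0999 and 0.38). Diablo was not called without KO replicate 2 or any 1 WT replicate, Birc3 without KO replicate 2 or WT replicate 2, and Fbxw7 without WT replicate 1 or 2 (edgeR adjusted p up to 0.13). The lists had 3 called genes when KO replicate 2 was left out, 3 for WT replicate 1 and 2 for WT replicate 2. The genes called in all were 156, 141 and 150 in those fits.

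In CD4 T cells 4 of 52 genes of the lists were called, beside 2.15% of all genes. Among them the kinase gene Pim2 and the pseudokinase gene Trib2 rose, and the death receptor gene Tnfrsf10b fell (log2 0.36, 0.42 and -0.45, SE 0.067, 0.096 and 0.10, edgeR adjusted p = 0.029, 0.040 and 0.041). No gene of the lists was called without KO replicate 1 or 3 or WT replicate 2, 1 was without KO replicate 2, and 8 were without WT replicate 1. In the same order, the genes called in all were 32, 47, 34, 68 and 598 in those fits. With all 24 libraries in one fit 0 of 56 were called, where 63 genes were called in all, and 14 of the 56 had an unadjusted p under 0.05. DESeq2 called 3 of 52. Tnfrsf10b and Trib2 were not called by DESeq2 (adjusted p = 0.082 and 0.11), nor Pim2 with the replicate block (edgeR adjusted p = 0.054).

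**Figure D4:**
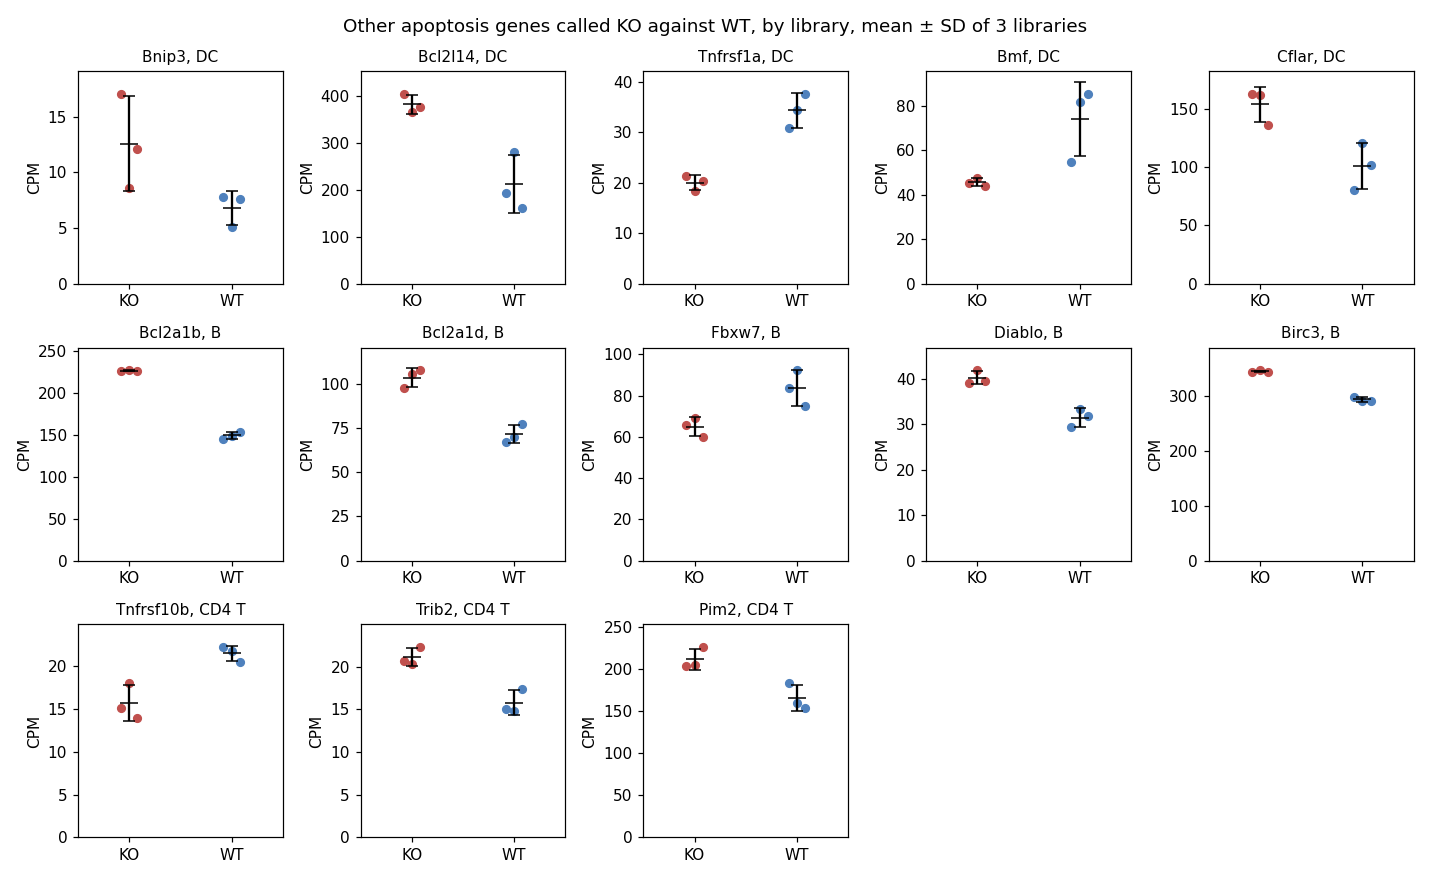
CPM of other apoptosis genes named by the rule on size of change, in the cell type where each was called, KO left of WT on linear axes starting at 0. Points are the 3 libraries and bars the mean ± SD (DC, dendritic cells). The KO and WT libraries do not overlap in any panel, which the rule required, as with Tnfrsf1a at 18.4 to 21.3 CPM in KO and 30.8 to 37.6 CPM in WT dendritic cells.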

How the data were processed

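Total RNA was sequenced as paired 50-base reads after TruSeq library preparation, per the labels' protocols. The deposited files hold whole-number read counts per gene, made by the authors with cutadapt, STAR and the mm9 genome, per the submitters' processing notes. No source used here gives versions, the counting tool or its handling of strand. Summary lines were left out of library sizes. They held 51.4 to 61.1% of each file as reads in no gene and 0.231 to 0.336% as ambiguous reads. Gene counts then summed to 7428821 to 8281861 in dendritic cell, 11479765 to 14219823 in macrophage, 9152770 to 11473588 in B cell and 8070030 to 10495461 in CD4 T cell libraries. No pair of libraries of a group was alike within sampling noise (chi-square per gene at least 2.08).

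The counts were tested with edgeR 4.0.16 in R 4.3.3 (TMM scaling, filterByExpr, robust quasi-likelihood F test, Benjamini-Hochberg adjustment over all genes tested, threshold 0.05). KO against WT was fitted per cell type on 6 libraries, and comparisons between cell types in a fit of all 24. Levels are CPM with TMM scaling. DESeq2 1.42.0, other scaling and filters, a replicate block and leaving out each library were tried. Replicate numbers may pair the macrophage libraries, where the deviations of same-numbered KO and WT libraries correlated at 0.122, 0.227 and 0.313. Those of unlike number correlated there at -0.265 to 0.0777. Whether the numbers mark pairs was not tested. The fits were tested on simulated data. Other genes of the pathway were named by a rule, up to 6 per cell type by size of change among those called, with a mean of at least 5 CPM and no overlap between KO and WT. One gene that the rule named is not reported here. The members and lists were chosen with earlier results of these data known.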

Additional observations from a re-analysis of the deposited data

Results flagged for a closer look

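The KO effect on some members differed between cell types by a test of the difference itself. For Bcl2l1 it was 1.002 higher in B cells than in dendritic cells on the log2 scale, 0.60 higher in CD4 T cells than in dendritic cells, and unequal over the 4 cell types at an edgeR adjusted p of 0.0040. For Mcl1 it was 0.40 higher in dendritic cells than in macrophages. For Pmaip1 the effects were unequal over the 4 cell types at an edgeR adjusted p of 0.035, with only 4 to 14 counts a library in macrophages.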

How the results depend on the processing

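The dendritic cell calls of Pmaip1, Mcl1, Bcl2l1 and Bad and the unequal KO effect on Bcl2l1 between B cells and dendritic cells kept their direction and call in every setting run. With all 24 libraries in one fit 3 members were called in macrophages, and the genes called in all were 1755 in macrophages, 81 in B cells and 63 in CD4 T cells. DESeq2 called 586 genes in macrophages, and 2 members each for the KO effect between dendritic cells and macrophages, B cells and dendritic cells, and CD4 T cells and dendritic cells. With no expression filter 1 member (Pmaip1) and 501 genes were called in B cells, and 1 member (Bcl2l1) and 478 genes in CD4 T cells. With the replicate block 4 members (Pmaip1, Mcl1, Bcl2l11 and Bax) and 1260 genes were called in B cells, 1 member (Bcl2l1) in CD4 T cells and 265 genes in macrophages. Same-numbered libraries correlated at 0.0035, 0.081 and -0.051 in dendritic cells and 0.017, 0.044 and -0.18 in CD4 T cells, which shows no pairing there. In B cells they correlated at 0.094, 0.034 and 0.15, and libraries of unlike number at -0.13 to 0.050. Whether the number pairs the B cell libraries is thus not settled, and the B cell results without the block do not use it. For WT B cells the numbers in the labels and in the names of the deposited files differ, so the pairs that the block forms there are uncertain.

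Direction turned for small differences. CD4 T cells minus macrophages in WT Bcl2l1 was -0.051 with DESeq2 and with RLE scaling, B cells minus macrophages in KO Bcl2l1 was -0.064 with both, and B cells minus CD4 T cells in KO Bak1 was 0.0017 with no filter. RLE scaling moved the median of all genes by at most -0.10, between B cells and dendritic cells in KO.

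Without 1 library in turn, genes called ranged over 1176 to 2870 in dendritic cells, 0 to 2746 in macrophages, 141 to 441 in B cells and 32 to 598 in CD4 T cells. Members called ranged over 0 to 3 in macrophages, 0 to 1 in B cells and 0 to 1 in CD4 T cells. For the KO effect they ranged over 0 to 2 between dendritic cells and macrophages, 0 to 5 between B cells and macrophages, 0 to 1 between CD4 T cells and dendritic cells, 0 to 3 between CD4 T cells and macrophages and 1 to 7 over the 4 cell types. Shares of all genes called in the KO effect fits of other settings are not given here. The log2 value of KO against WT changed sign within -0.14 to 0.031 for Bax in dendritic cells. In macrophages it did so within -0.43 to 0.036 for Bcl2, -0.39 to 0.33 for Bcl2l11 and -0.069 to 0.10 for Mcl1. In B cells it did so within -0.28 to 0.061 for Bad, -0.044 to 0.20 for Bcl2l1 and -0.017 to 0.083 for Bid. In CD4 T cells it did so within -0.019 to 0.051 for Bak1, -0.011 to 0.10 for Bax, -0.059 to 0.065 for Bbc3 and -0.019 to 0.091 for Bid. Between cell types it did so within -0.27 to 0.090 for Bax and -0.075 to 0.13 for Bcl2l1 (CD4 T cells minus macrophages in WT), -0.033 to 0.023 for Mcl1 (dendritic cells minus macrophages in KO) and -0.032 to 0.038 for Bak1 (B cells minus CD4 T cells in KO). For the KO effect on Bad, dendritic cells minus macrophages, the range was -0.23 to 0.073. The cause of these changes was not tested. With the shortest coding length 26 of 40 levels per kilobase moved by more than their spread. Depth limits Bcl2 in dendritic cells and Pmaip1 in macrophages, which were too low to be tested.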
